A study of Gallus gallus with 6 samples.

Results

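The genes described here are 10 that set the gate from G1 into S phase: the D cyclins CCND1, CCND2 and CCND3, their kinase partner CDK6, the CDK inhibitors CDKN1A, CDKN1B and CDKN2B, and the pocket protein genes RB1, RBL1 and RBL2. They were picked by symbol from the 25619 gene rows of the table, and each symbol had 1 row. All 10 reached a mean of 1 FPKM over the libraries (reads or fragments per kilobase of gene, with a scale factor for each library), so all 10 were among the 11857 genes tested. RBL1, at a mean of 1.12 FPKM, lay just inside that limit. The 6 bulk RNA-seq libraries came from basilar papillae, the auditory sensory epithelium of the chick (Gallus gallus). The first group, SM plus BQ788, has 3 libraries from explants given streptomycin (SM), an aminoglycoside toxic to hair cells, and then BQ788, an antagonist of the type B endothelin receptor. The second, SM control, has 3 libraries from explants given SM without BQ788. Both groups share the start at post-hatch day 1, the 48 h in SM and the label day 3, and no library without SM was analysed here. The sources used here give neither strain nor sex, nor the dose of BQ788 or how many ducts went into a library. Nothing in the labels ties replicates to distinct animals or dishes, so each p-value reflects the scatter among these 6 samples only, and that scatter may be technical.

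D cyclins activate the kinases CDK4 and CDK6, which phosphorylate the retinoblastoma protein and its relatives. Unphosphorylated pocket proteins hold E2F transcription factors in check, and their phosphorylation frees the genes of DNA replication. CDKN2B (p15) is an INK4 inhibitor that binds CDK4 and CDK6 alone, while CDKN1A (p21) and CDKN1B (p27) are CIP/KIP inhibitors that bind cyclin and kinase together. In the mouse cochlea p27 is a marker of quiescent supporting cells and its loss lets them divide. In birds supporting cells can leave quiescence when hair cells are lost. Much of this control acts on the proteins, through phosphorylation and degradation, which RNA does not show.

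Reads recovered from the FPKM values came to between 15438305 and 17375656 per library. All 12 supporting cell markers on the list used here were at 1 FPKM or more on average. Sums of 9 macrophage markers (86.2 to 96.9 FPKM with BQ788, 78.9 to 101.9 FPKM in the controls, 0 of 8 tested called) overlapped between the groups, and those of 7 erythrocyte genes were at most 1.03 FPKM, with HBAD, HBBR, HBE and HBE1 at 0. Among the macrophage markers CD74, the largest term, was lowest in BQ788 replicate 1 (23.4 FPKM). CSF1R (5.06 FPKM), C1QA, C1QB (13.9 FPKM), C1QC and MARCO were instead highest in that library, and PTPRC, CTSS and SPI1 were at neither end there. Replicates spread beyond sampling noise, least between control replicates 1 and 2 (chi-square of 6.00 for each degree of freedom) and most between BQ788 replicates 1 and 3 (55.6). Over all genes 355 of 11857 passed an adjusted p of 0.05 in limma (2.99%), of which 89 were higher (0.751%) and 266 lower (2.24%) with BQ788. Without BQ788 replicate 1 the count was 1311, without BQ788 replicate 3 it was 21, and without any other library it was 1.

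With BQ788, CDK6 was lower in every library than in any control, and the other 9 genes overlapped between the groups. None of the 10 genes passed an adjusted p of 0.05 in limma, and none passed in limma voom on recovered reads. The share over all genes tested was 2.99%, so a count of 0 among 10 does not set them apart. At an unadjusted p of 0.05, 1 of the 10 passed with either tool, CDK6, against 22.7% of all genes in limma. CDK6 was also the only 1 of the 10 whose groups did not overlap, against 29.3% of all genes tested. Of the 10 log2 fold changes 6 were below 0 and 4 above, from -0.20 to 0.06 with a median of -0.06, beside a median of 0.02 over all genes tested. On the log2(FPKM + 1) scale used for every fold change here, no 95% interval reached a change of 2-fold in either direction. That scale understates changes of low genes such as RBL1.

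**Figure D1:**
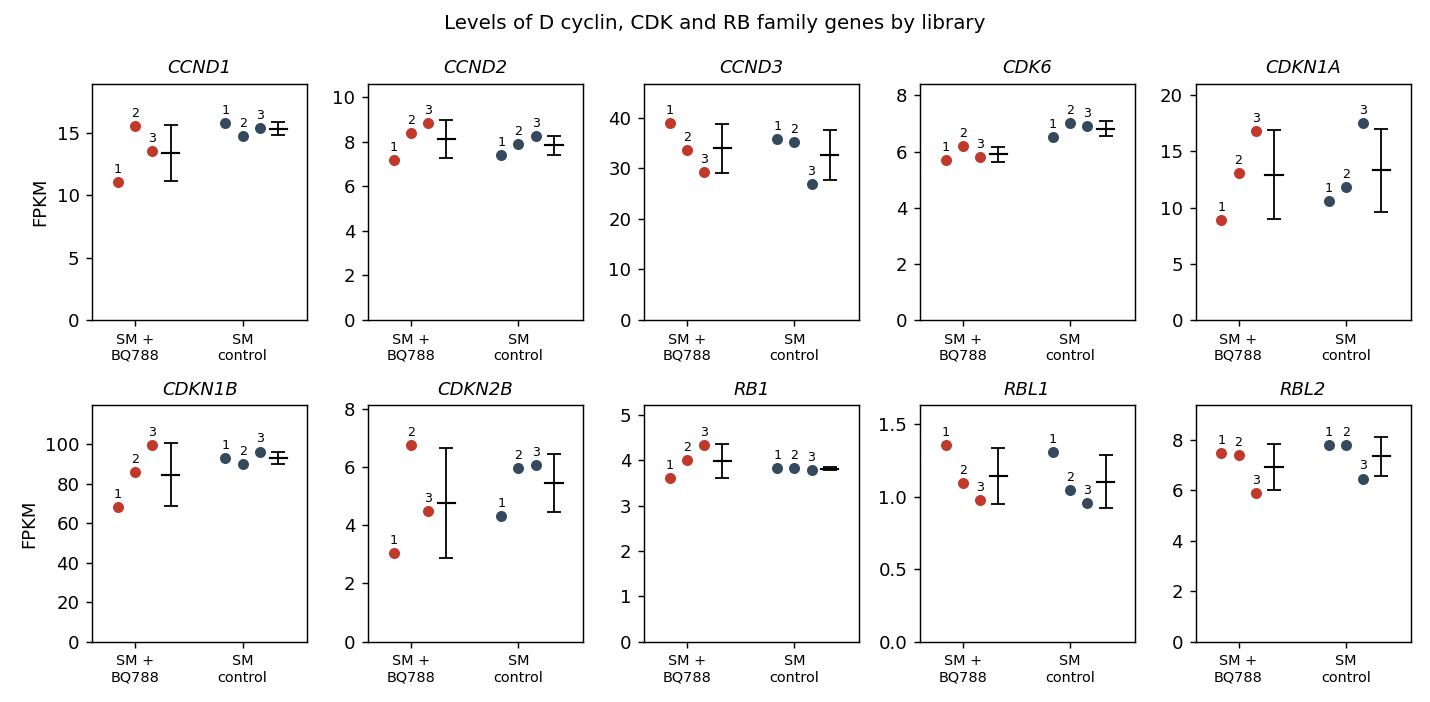
FPKM (y axis, from 0) of each of the 10 genes in the 3 SM plus BQ788 libraries (red) and the 3 SM control libraries (blue), with replicate numbers above the points and bars for mean ± SD. The groups overlap in every gene but CDK6, whose BQ788 libraries lie between 5.71 and 6.19 FPKM and whose controls lie between 6.53 and 7.01 FPKM.

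CDKN1B was the most abundant of the 10 per length, at a mean of 88.8 FPKM over the 6 libraries, a level above that of 95% of the genes tested. CCND3 followed at 33.3 FPKM, and the lowest CDKN1B library (68.0 FPKM) lay above the highest CCND3 library (38.9 FPKM). CCND1 (14.4 FPKM) and CDKN1A (13.1 FPKM) came next, and their ranges overlapped. CCND2 (7.98), RBL2 (7.13), CDK6 (6.36), CDKN2B (5.10) and RB1 (3.90 FPKM) formed a run in which each gene's range overlapped that of the next. RBL1 was lowest at 1.12 FPKM, below RB1 in all 6 libraries.

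Among the D cyclins, CCND1, the form most widely induced by growth factors, was at 11.1, 15.5 and 13.5 FPKM with BQ788, against 15.8, 14.8 and 15.4 FPKM in the SM controls. BQ788 replicates 1 and 3 lay below every control, but replicate 2 lay within their range, so the groups overlapped. The log2 fold change was -0.20 (SE 0.12, 95% interval -0.48 to 0.09, limma adjusted p = 0.368). The BQ788 libraries were also the more spread out, at 13.4 ± 2.25 FPKM, beside 15.3 ± 0.516 FPKM in the controls (mean ± SD, n = 3 each, here and below). Without BQ788 replicate 1 the fold change was -0.08, and without BQ788 replicate 2 it was -0.30.

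CCND2, the cyclin D2 gene, was at 7.17, 8.37 and 8.83 FPKM with BQ788, against 7.39, 7.91 and 8.23 FPKM in the controls. The BQ788 libraries reached beyond the controls at both ends. CCND3, the cyclin D3 gene, was at 38.9, 33.6 and 29.3 FPKM with BQ788, against 35.8, 35.1 and 26.97 FPKM in the controls. Its 2 lowest libraries were replicate 3 of each group, and the groups overlapped. The fold changes of CCND2 (0.04, 95% interval -0.17 to 0.26, limma adjusted p = 0.822) and CCND3 (0.06, 95% interval -0.28 to 0.40, limma adjusted p = 0.849) were smaller than their standard errors of 0.09 and 0.14.

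Which D cyclin leads depends on whether gene length is taken into account. Per length, CCND3 made up 61.1 ± 6.14% of the summed D cyclin FPKM with BQ788 and 58.2 ± 4.29% in the controls. By reads, CCND2 had the largest share, at 46.8 ± 4.12% with BQ788 and 45.4 ± 3.57% in the controls. The table gives CCND2 a gene length of 18549 bases, against 4514 for CCND1 and 3250 for CCND3, and FPKM divides by that length. If part of the listed length is not transcribed in this tissue, FPKM understates the gene, and this holds for CDK6 (15011 bases) and RB1 (13003 bases) too.

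CDK6, the kinase subunit that D cyclins activate, showed the most even difference of the 10. It was at 5.71, 6.19 and 5.79 FPKM with BQ788, against 6.53, 7.01 and 6.90 FPKM in the controls. All 3 BQ788 libraries lay below all 3 controls, and the means were 5.90 ± 0.259 FPKM with BQ788 and 6.82 ± 0.254 FPKM in the controls, a difference of -13.5%. The log2 fold change was -0.18 (SE 0.07, 95% interval -0.34 to -0.02, limma adjusted p = 0.183), so the gene did not pass. The exact two-sided permutation p was 0.1, the smallest that 3 against 3 libraries allow. Leaving out any 1 library kept the fold change between -0.21 and -0.16.

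CDK6 had 1350 to 1739 reads per library, which puts the counting error at 2.40% to 2.72%, below the spread between replicates of 4.39% with BQ788 and 3.73% in the controls. Its spread within groups was larger than that of 8.36% of the genes tested and smaller than that of the rest. Several marker sums did not overlap between the same groups. The summed level of 11 hair cell markers was 356.8 to 370.6 FPKM with BQ788 and 404.7 to 433.6 FPKM in the controls, with 0 of 10 tested past the threshold. ATOH1, the largest term, overlapped (134.3 to 176.4 FPKM with BQ788, 158.0 to 163.1 FPKM in the controls). Means of MYO6 and TMC1 were higher with BQ788, and those of the other hair cell markers lower. The summed level of 8 cartilage markers was 136.5 to 165.3 FPKM with BQ788 and 253.1 to 296.2 FPKM in the controls, with COL9A1, COL9A2 and COL9A3 lower of 6 tested. COL2A1, COL11A1 and MATN3 overlapped between the groups, with COL11A1 at 31.9 FPKM with BQ788 and 33.2 FPKM in the controls. ACAN and MATN1 averaged under 1 FPKM, so this sum does not establish cartilage cells. The 9 Schwann cell and neuron markers summed to 136.9 to 169.9 FPKM with BQ788 and 173.2 to 185.5 FPKM in the controls, with 3 of 6 tested lower and 3 of the 9 below 1 FPKM on average. Sums of 7 melanocyte markers (4.31 to 6.81 with BQ788, 13.3 to 13.6 FPKM in the controls, 1 of 4 tested lower) also did not overlap. Nor did those of 7 endothelial markers (24.9 to 31.2 with BQ788, 33.5 to 37.0 FPKM in the controls, 0 of 2 tested lower). TYR, TYRP1, DCT, CDH5, KDR, TEK, TIE1 and VWF averaged under 1 FPKM. The largest term of the melanocyte sum was SLC45A2 (2.34 FPKM with BQ788, 8.13 FPKM in the controls), and MLANA was lower too. The mean of MITF was higher with BQ788 (1.32 FPKM, beside 1.15 FPKM in the controls). PMEL overlapped (means of 1.02 FPKM with BQ788 and 1.08 FPKM in the controls). The endothelial sum was mostly EGFL7 (18.0 FPKM with BQ788, 23.1 FPKM in the controls) and PECAM1 (7.43 FPKM with BQ788, 10.4 FPKM in the controls). Means of CDH5, KDR, TEK, TIE1 and VWF went the other way, each higher with BQ788. The part of these marker differences in the CDK6 difference was not tested. In bulk samples fewer cells of a type and less RNA per cell cannot be told apart.

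**Figure D2:**
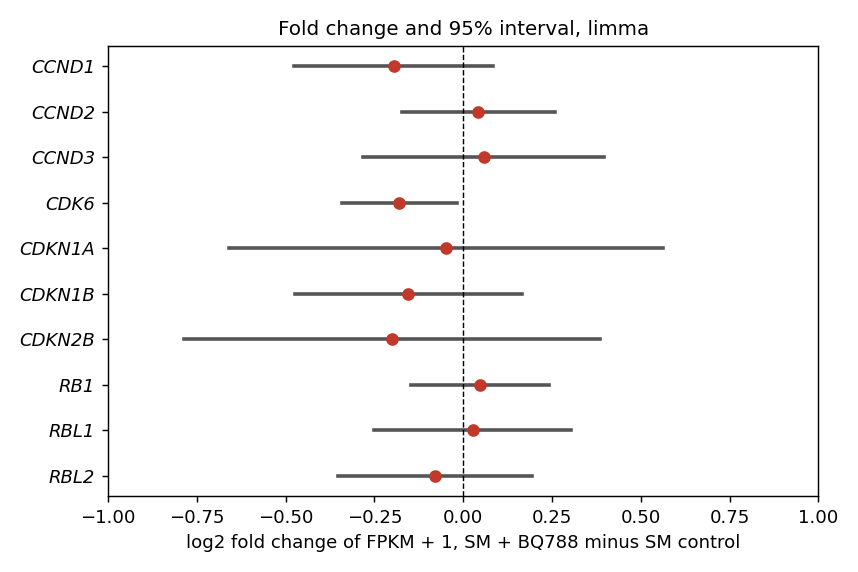
Log2 fold change of FPKM + 1 (x axis), SM plus BQ788 minus SM control, for each of the 10 genes, with points for the limma estimate and lines for the 95% interval, not adjusted for the number of genes. Only the interval of CDK6 (-0.34 to -0.02) lies wholly on 1 side of 0, and those of CDKN2B (-0.79 to 0.38) and CDKN1A (-0.66 to 0.56) are the widest.

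Of the inhibitors, CDKN1B, the p27 gene, was at 68.0, 86.0 and 99.6 FPKM with BQ788, against 93.0, 90.1 and 96.2 FPKM in the controls. The BQ788 libraries held both the lowest and the highest value of the 6, and replicate 1 alone lay far below the rest. The means were 84.5 ± 15.9 FPKM with BQ788 and 93.1 ± 3.09 FPKM in the controls, with a log2 fold change of -0.15 (SE 0.13, 95% interval -0.47 to 0.17, limma adjusted p = 0.543). Without BQ788 replicate 1 the fold change was -0.01, and without BQ788 replicate 3 it was -0.28. Depth does not limit this gene, which had 2951 to 4035 reads per library and a counting error of at most 1.84%.

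CDKN1A, the p21 gene, was at 8.90, 13.1 and 16.8 FPKM with BQ788, against 10.6, 11.8 and 17.5 FPKM in the controls. Both groups covered nearly the same range, with replicate 3 highest in each and replicate 1 lowest in each. Its spread within groups was wider than that of 94.3% of the genes tested, and the log2 fold change was -0.05 (SE 0.26, 95% interval -0.66 to 0.56, limma adjusted p = 0.935). Its direction turned to 0.18 without BQ788 replicate 1 and to 0.15 without control replicate 3.

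CDKN2B, the p15 gene, was at 3.03, 6.76 and 4.48 FPKM with BQ788, against 4.30, 5.96 and 6.05 FPKM in the controls. BQ788 replicates 1 and 2 were the lowest and the highest of all libraries, a span of 2.23-fold. The log2 fold change of -0.20 (SE 0.24, 95% interval -0.79 to 0.38, limma adjusted p = 0.672) turned to 0.03 without BQ788 replicate 1. Between 103 and 219 reads per library lay behind these values, a counting error of 6.76% to 9.85%, while the replicates varied by 39.5% with BQ788 and 18.1% in the controls. CDKN2B lies on chromosome Z, which male birds carry in double dose. The summed level of 169 genes on chromosome W, carried by females only, was 68.9 to 74.2 FPKM with BQ788 and 80.4 to 87.5 FPKM in the controls, with no overlap. The median of 567 genes on Z, relative to autosomes, was 0.836 to 0.882 with BQ788 and 0.816 to 0.858 in the controls, so those ranges overlapped. The part of sex in the CDKN2B values was not tested.

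The RB family genes averaged from 1.12 FPKM (RBL1) to 7.13 FPKM (RBL2), and the groups overlapped in each. RB1, the retinoblastoma gene, was at 3.61, 4.01 and 4.34 FPKM with BQ788, against 3.83, 3.84 and 3.78 FPKM in the controls. Control libraries differed from each other by less than the counting error of 3.36% to 3.58%, while BQ788 libraries lay on both sides of them. RBL2, which encodes p130, the pocket protein typical of quiescent cells, was at 7.45, 7.41 and 5.88 FPKM with BQ788, against 7.80, 7.78 and 6.46 FPKM in the controls. In each group replicate 3 stood below the other 2 libraries. RBL1, which encodes p107, the pocket protein typical of cycling cells, was at 1.36, 1.09 and 0.977 FPKM with BQ788, against 1.31, 1.05 and 0.954 FPKM in the controls. It rested on 85 to 135 reads per library, with a counting error of 8.61% to 10.8%. The fold changes were 0.05 for RB1 (95% interval -0.15 to 0.24), -0.08 for RBL2 (-0.35 to 0.19) and 0.03 for RBL1 (-0.25 to 0.30), with limma adjusted p of 0.771, 0.724 and 0.919.

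**Figure D3:**
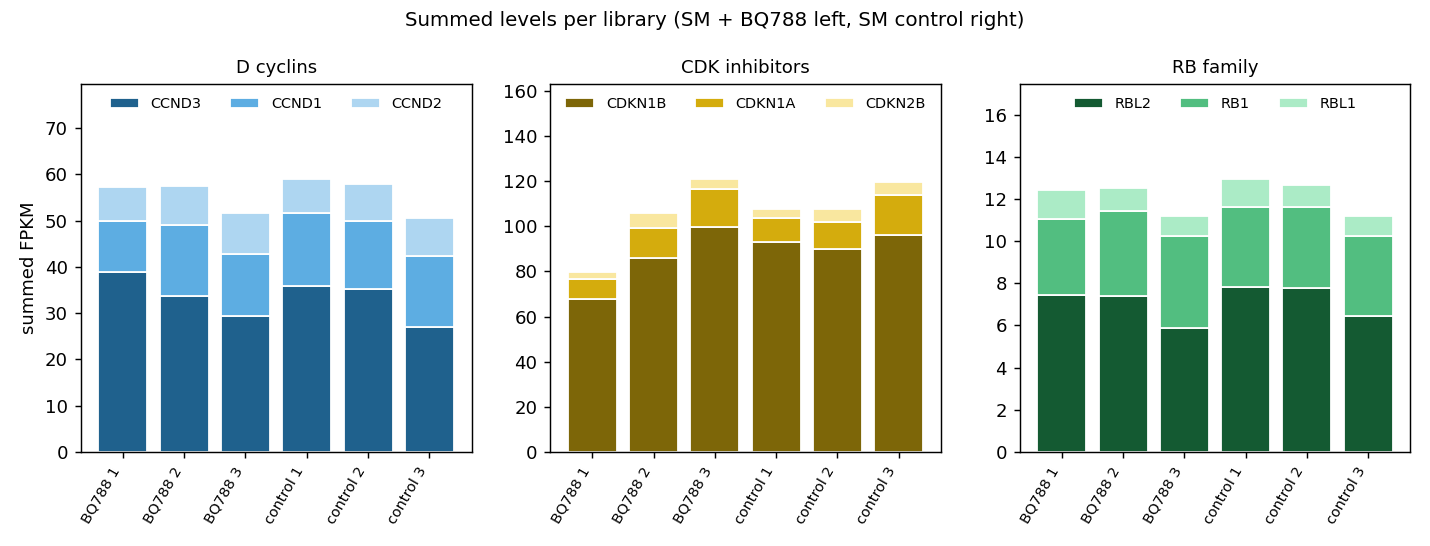
Summed FPKM (y axis, from 0) of the D cyclins, the CDK inhibitors and the RB family in each library, stacked by gene, with SM plus BQ788 on the left. D cyclin sums lie between 50.6 and 59.0 FPKM in all 6 libraries, and the inhibitor sum is lowest in BQ788 replicate 1, at 79.9 FPKM.

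Taken as sums, the 3 D cyclins reached 55.5 ± 3.29 FPKM with BQ788 and 55.8 ± 4.52 FPKM in the controls, and the RB family reached 12.0 ± 0.735 FPKM with BQ788 and 12.3 ± 0.937 FPKM in the controls. The summed inhibitors were at 79.9, 105.9 and 120.9 FPKM with BQ788, against 107.8, 107.9 and 119.8 FPKM in the controls. Thus the D cyclin and RB family sums varied little between libraries, and the inhibitor sum varied mainly among the BQ788 libraries. CDKN1B made up 82.9 ± 1.95% of the inhibitor sum with BQ788 and 83.3 ± 2.95% in the controls. The level of CDKN1B relative to the summed D cyclins was 1.19, 1.496 and 1.93 with BQ788, against 1.58, 1.56 and 1.90 in the controls. The groups overlapped, and BQ788 replicate 1 had the lowest ratio.

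BQ788 replicate 1 was the lowest library for 7 of the 10 genes (CCND1, CCND2, CDK6, CDKN1A, CDKN1B, CDKN2B and RB1) and the highest for CCND3 and RBL1. Over all genes tested it was the lowest library for 21.4% and the highest for 21.6%. Its deviation from the mean of the 6 libraries was -0.56 in CDKN2B, -0.48 in CDKN1A, -0.37 in CDKN1B and -0.34 in CCND1 on the log2 scale, and 0.23 in CCND3. The same library had the highest fibroblast and mesenchyme sum, 321.0 FPKM over 11 markers, against 131.1 and 173.0 FPKM in the other BQ788 libraries and 242.4 to 295.2 FPKM in the controls. COL1A1 (119.4 FPKM) and COL1A2 (84.2 FPKM) made up most of that sum. Both were highest in this library, as were DCN, LUM, PDGFRA, TWIST1 and TWIST2. POSTN (5.48 FPKM) and MGP (4.43 FPKM) were instead lowest in it, and COL3A1 and COL6A2 lay below every control, so this list was split. The sum of 12 supporting cell markers in this library was the lowest, at 3080 FPKM, against 3736 and 4359 FPKM in the other BQ788 libraries and 3883 to 4894 FPKM in the controls. TECTB (1558 FPKM) and GJB6 (756 FPKM) made up most of that sum, and both were lowest in this library. SOX2 (61.0 FPKM), LFNG (54.0 FPKM) and HES5 (16.1 FPKM) were instead highest in it, so the markers did not move together. Of the 11 fibroblast markers POSTN and MGP passed an adjusted p of 0.05 in limma, both lower with BQ788, and none averaged under 1 FPKM. Of the 12 supporting cell markers FGFR3 alone passed, also lower. Means of the others lay on both sides, with DCN at 25.8 FPKM with BQ788 and 22.3 FPKM in the controls, JAG1 at 65.7 FPKM with BQ788 and 48.5 FPKM in the controls, and SOX9 at 44.6 FPKM with BQ788 and 57.2 FPKM in the controls. The part of this mixture of cells in the values of the 10 genes was not tested.

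**Figure D4:**
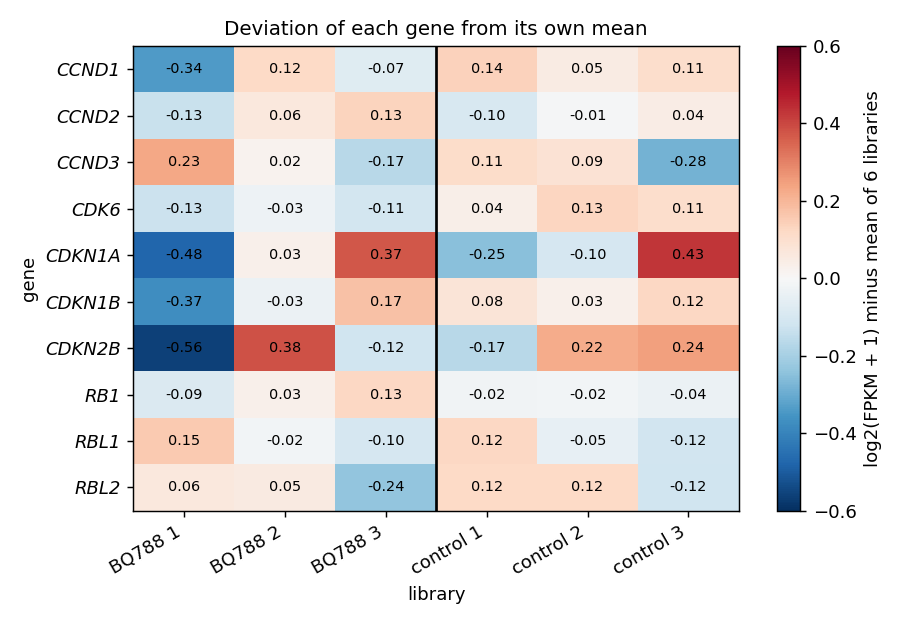
Each cell gives log2(FPKM + 1) of a gene (rows) in a library (columns) minus the gene's mean over the 6 libraries, with BQ788 libraries left of the line and red for higher. The lowest cells stand in BQ788 replicate 1, from -0.56 in CDKN2B to -0.34 in CCND1, and CDKN1A is high in replicate 3 of both groups (0.37 with BQ788 and 0.43 in the control).

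In position the 10 genes lie on 7 chromosomes of the GRCg7b build, and no 2 of them touch. CDKN1B (chromosome 1, 72179462 to 72182992) and CCND2 (73569617 to 73614521) lie 1.39 Mb apart with 21 genes between them. CDKN1A (chromosome 26, 1629435 to 1638659) and CCND3 (5071618 to 5110296) lie 3.43 Mb apart. RB1 is also on chromosome 1 (168632963 to 168710104). CCND1 is on chromosome 5 (17081391 to 17097705), CDK6 on chromosome 2 (22606846 to 22740743), CDKN2B on chromosome Z (83341829 to 83345255), RBL1 on chromosome 20 (967889 to 988940) and RBL2 on chromosome 11 (4635589 to 4655131).

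The sources used here do not say whether counting took account of strand, so reads of a gene and its antisense partner may not be told apart. The widest such overlap concerns RBL2, of which 7946 bases of the gene span are shared with LOC121111688, a long non-coding RNA on the other strand at 2.05 ± 0.0589 FPKM with BQ788 and 2.41 ± 0.530 FPKM in the controls. CDK6 shares 5723 bases with LOC107052572 and 142 bases with LOC112531971, long non-coding RNAs on the other strand. These had at most 2 and 15 reads per library. LPAR6, a receptor gene on the other strand, shares 1433 bases with the span of RB1 and was at 5.21 ± 0.989 FPKM with BQ788 and 4.15 ± 0.464 FPKM in the controls. CCND3 shares 252 bases with TAF8, which was at 5.15 ± 1.30 FPKM with BQ788 and 5.62 ± 0.939 FPKM in the controls. CDKN1B has a relative nearby, LOC101751545, described as CDK inhibitor 1-like (chromosome 1, 72104544 to 72117786), which was at 1.98 ± 0.466 FPKM with BQ788 and 2.33 ± 0.341 FPKM in the controls (limma adjusted p = 0.535). CDKN2A, the neighbour of CDKN2B, had at most 25 reads per library, and its level was 0.914 ± 0.0467 FPKM with BQ788 and 0.730 ± 0.248 FPKM in the controls, below the limit for testing.

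Of 31 partner genes of the pathway, 28 had a row and 24 were tested. They gave 0 calls in limma and 0 in limma voom, beside 2.99% of all genes, with a median log2 fold change of 0.06. At an unadjusted p of 0.05, 5 of the 24 passed in limma, beside 22.7% of all genes. LIN52, a subunit of the DREAM complex that binds RBL1 and RBL2, was at 18.4 ± 0.607 FPKM with BQ788 and 14.2 ± 1.18 FPKM in the controls (0.35, SE 0.07, limma adjusted p = 0.0620). It passed with the replicate number as a block (adjusted p = 0.0485) and without BQ788 replicate 1 (adjusted p = 0.0416). MYBL1, a MYB family factor, was at 1.49 ± 0.466 FPKM with BQ788 and 0.729 ± 0.191 FPKM in the controls (0.51, limma adjusted p = 0.133). Its control mean was under 1 FPKM, so MYBL1 was tested only because its BQ788 values lifted the mean to 1.11 FPKM. In both the groups did not overlap, which held for 7 of the 24 partners, beside 29.3% of all genes tested, so it does not set them apart.

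The E2F factors act downstream of the pocket proteins, which bind some of them directly. E2F7, a repressor not bound by pocket proteins, was at 3.30 ± 0.205 FPKM with BQ788 and 2.60 ± 0.242 FPKM in the controls (0.26, 95% interval 0.05 to 0.47, limma adjusted p = 0.152). Its groups did not overlap, as in 29.3% of all genes tested. E2F1, an activator, was at 5.62 ± 0.728 FPKM with BQ788 and 4.41 ± 0.775 FPKM in the controls (0.30, limma adjusted p = 0.241). E2F3 (0.14), E2F5 (0.10), E2F4 (-0.05), E2F6 (-0.05) and E2F8 (-0.01) came behind them, and E2F2 averaged under 1 FPKM. CDK2, the kinase that acts after CDK6, was at 12.2 ± 0.941 FPKM with BQ788 and 11.6 ± 1.53 FPKM in the controls. Its partner CCNE1 was at 6.71 ± 0.469 FPKM with BQ788 and 6.42 ± 0.571 FPKM in the controls, while CCNE2 averaged under 1 FPKM. CDKN1C, the remaining CIP/KIP inhibitor, named after its values were seen, was at 38.4, 56.5 and 57.5 FPKM with BQ788, against 52.1, 52.9 and 63.3 FPKM in the controls (-0.16, limma adjusted p = 0.623). As in CDKN1B, BQ788 replicate 1 was its lowest library. CDK4, CDKN2D and TFDP1 were not analysed here.

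Of 13 genes for the turnover of cyclin D and p27, 11 were tested. None passed in limma or limma voom, beside 2.99% of all genes, 1 passed at an unadjusted p of 0.05, beside 22.7%, and the median was 0.10. FBXO31, an F-box protein that targets cyclin D1, was at 15.3 ± 1.03 FPKM with BQ788 and 12.5 ± 1.02 FPKM in the controls (0.27, limma adjusted p = 0.127). SKP2, the F-box protein that targets p27, was at 16.8 ± 1.22 FPKM with BQ788 and 14.7 ± 0.814 FPKM in the controls (0.18, limma adjusted p = 0.236). The groups did not overlap in either, which holds for 29.3% of all genes tested. USP2, a deubiquitinase of cyclin D1, had a log2 fold change of -0.32 (limma adjusted p = 0.264).

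**Figure D5:**
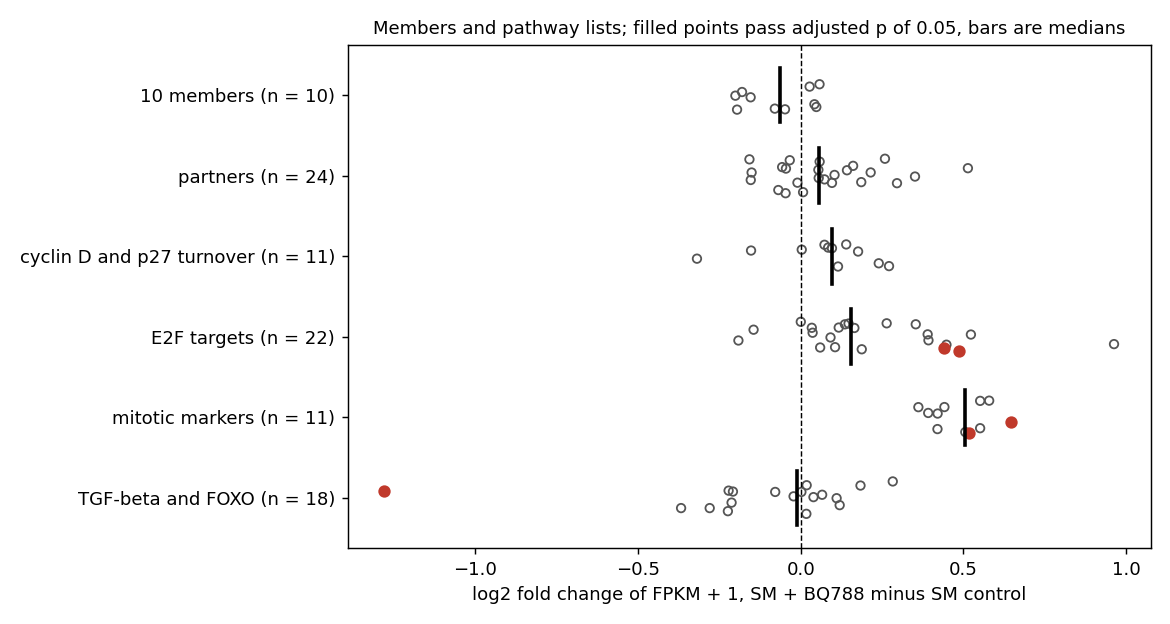
Log2 fold change of FPKM + 1 (x axis), SM plus BQ788 minus SM control, of the 10 genes and of the tested genes of 5 pathway lists, 1 point per gene, filled where the limma adjusted p is under 0.05, with bars for medians. The 10 genes hold no filled point and a median of -0.06, and all 11 mitotic markers lie above 0.

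Genes downstream of the gate were measured beside it. Of 22 tested E2F targets of G1 and S phase, 2 rose and 0 fell, beside 0.751% of all genes called higher. At an unadjusted p of 0.05, 9 of the 22 passed, beside 22.7% of all genes, and the median was 0.16. The 2 were POLA2, a subunit of DNA polymerase alpha, at 11.5 ± 0.814 FPKM with BQ788 and 8.19 ± 0.436 FPKM in the controls (0.44, SE 0.08, limma adjusted p = 0.0415), and the helicase gene MCM4 (0.49, limma adjusted p = 0.0327). Of 11 tested mitotic markers, CENPM (0.65) and KIF23 (0.52) rose, all 11 passed at an unadjusted p of 0.05, and the median was 0.51. In the controls ECT2 (0.853 FPKM) and BUB1 (0.939 FPKM) averaged under 1 FPKM, as did CDC45 (0.737 FPKM) and GINS2 (0.861 FPKM) of the E2F targets. They were tested only because higher BQ788 values lifted their means past the filter, so the filter favours rises in both counts. MKI67, a marker of cycling cells, had a log2 fold change of 0.42 (limma adjusted p = 0.175). Both lists were written with the rise of proliferation genes already known, so their counts are no independent support for it. The limma calls of POLA2, MCM4, CENPM and KIF23 held without BQ788 replicate 1 and were lost without any 1 of the other 5 libraries, with adjusted p up to 0.174. They were also lost when libraries were scaled by plain read totals (adjusted p from 0.0557 to 0.0806) or genes were not filtered (adjusted p from 0.0614 to 0.0785). POLA2 was lost in limma voom as well (adjusted p = 0.0532). The fold changes kept their direction throughout, as for MCM4, which ran from 0.45 to 0.52 on leaving out a library.

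On the input side, 18 TGF-beta, MYC and FOXO genes that feed CDKN2B and CDKN1B were tested. Of these 1 passed, beside 2.99% of all genes, so the count does not set the list apart. The gene that passed lies on chromosome 25 and is named SMAD4, the shared mediator of TGF-beta signals. It was at 2.72 ± 0.505 FPKM with BQ788 and 7.98 ± 0.482 FPKM in the controls, with a log2 fold change of -1.28 (limma adjusted p = 0.0183). Rows on chromosomes W and Z carry the same protein name, so the split of reads among these 3 rows is uncertain. That call was lost without BQ788 replicate 2 (adjusted p = 0.0887) and without any 1 of control replicates 1, 2 and 3 (adjusted p = 0.0865, 0.0979 and 0.0675). At an unadjusted p of 0.05, 6 of the 18 passed, 2 higher and 4 lower, beside 22.7% of all genes, and the list's median was -0.01.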

How the data were processed

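The deposited table holds FPKM per gene, computed by the authors, with coordinates, gene lengths and descriptions on GRCg7b. The submitters' processing notes list fastp, and the sources used here name no aligner, counter or strand setting. Dividing FPKM times gene length by the smallest step of each library gave whole reads, within 0.01 of a read, for 100% of values, so reads were recovered. Median-of-ratios factors were the same in all 6 libraries (1.00), so the deposited values were already on that scale.

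Values of log2(FPKM + 1) were fitted with limma 3.58.1 (R 4.3.3), with group as the only term, eBayes with trend and two-sided tests. Benjamini-Hochberg adjustment at 0.05 covered every gene whose mean reached 1 FPKM. The fit was tested on simulated data, with planted changes larger than those measured in the 10 genes, so that test does not cover changes of their size. Exact permutation used scipy 1.17.1. The authors' FPKM was the only input, and 25616 of 25619 gene identifiers matched the RefSeq table used for chromosome names. Counting errors cover counting only, because no molecular identifiers are reported for the reads.

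The 10 genes, the 5 pathway lists and the marker lists were chosen with earlier results of these data known. The text names the 10 genes, the list genes past the threshold or otherwise up to 3 with the smallest p, and E2F, CDK2, cyclin E and MKI67. A list of genes around CDKN1A and some genes are not reported here. Alternatives were other pseudocounts, filters, scalings, variance priors, the replicate number as a block, limma voom on recovered reads, leaving out chromosomes W and Z and leaving out each library. Scaling by plain read totals was added after seeing the data.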

Additional observations from a re-analysis of the deposited data

How the results depend on the processing

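None of the 10 genes passed under any of the alternatives (lowest adjusted p 0.0971, for CDK6 in limma voom on recovered reads), and outside leaving out a library none of them changed sign. On leaving out 1 library, 7 changed sign: CCND2 ran from -0.014 to 0.12, CCND3 from -0.070 to 0.16, CDKN1A from -0.25 to 0.18, CDKN2B from -0.44 to 0.030, RB1 from -0.0032 to 0.10, RBL1 from -0.043 to 0.10 and RBL2 from -0.16 to 0.018. Among the other genes named, CDKN1C ran from -0.26 to 0.028, E2F6 from -0.11 to 0.029, E2F8 from -0.14 to 0.16 and CDK2 from -0.00082 to 0.17, and E2F8 was at 0.043 under quantile normalization.

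The count over all genes was 68 with no filter, 220 by plain read totals and from 1 to 1311 on leaving out a library. With no filter the E2F target and mitotic lists gave 0 and 0 calls, and by plain totals they gave 0 and 0. At a mean of at least 5 FPKM the mitotic list gave 0, but only 2 of its genes were tested there. That filter removed CENPM and KIF23, so their calls could not be repeated. In limma voom the E2F target list gave 1 call. On leaving out a library the partner list ran from 0 to 1, the E2F target list from 0 to 7, the mitotic list from 0 to 7 and the TGF-beta list from 0 to 4, with the highest value in each without BQ788 replicate 1. Median-of-ratios scaling multiplies all libraries by 1 constant here and so tests nothing.

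Same-numbered libraries deviated together for replicates 1 and 3 (correlations of 0.50 and 0.57) but hardly for replicate 2 (0.07). BQ788 replicate 2 correlated about as weakly with control replicate 3 (0.13). The labels do not say that the numbers pair libraries, so the main fit left them out and a block was fitted as an alternative. Whether the numbers mark a shared origin was not tested. With the replicate block 749 genes passed, 345 of them shared with the 355, and the partner, E2F target and mitotic lists gave 1 (LIN52), 4 and 6 calls, while the 10 genes gave 0. The cause of these shifts was not tested. Depth limits RBL1 and CDKN2B most, at no fewer than 85 and 103 reads per library.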
